A study of Mus musculus with 12 samples.

Results

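The genes described here are the secreted Wnt ligands, their Frizzled receptors and the proteins that tune this pathway from outside or inside the cell, measured by RNA-seq in the prefrontal cortex (PFC) of mice after repeated cocaine. They were chosen by name, with earlier results of these data known. The rule took every gene whose symbol begins with Wnt, Fzd, Sfrp, Dkk, Dvl, Axin or Rspo and a number, or with Dkkl or Tcf7. This gave 51 genes among 41319 loci in the 2 h table, 42527 in the 24 h table and 41667 in the 7 d table. They are 19 Wnt ligands, 4 R-spondins with 1 antisense transcript (Rspo4os), 10 Frizzled receptors and 4 secreted Frizzled-related proteins. The others are 5 Dickkopf-type proteins, 3 Dishevelled adaptors, 2 Axin scaffolds and 3 Tcf7-type transcription factors.

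Wnt proteins are secreted lipid-modified signals that bind a Frizzled receptor together with an Lrp co-receptor. Dishevelled then restrains a complex built on Axin that otherwise marks beta-catenin for destruction, and the beta-catenin that accumulates enters the nucleus and acts on Tcf/Lef factors at target genes. In the adult forebrain the pathway is known for roles in synapse assembly, dendrite growth and the barrier properties of blood vessels.

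The mice were males of 10 weeks, C57BL/6 by the labels and C57BL/6J by the methods, that received intraperitoneal saline or cocaine at 20 mg/kg per day for 14 days. Both sides of the PFC were taken after a further 2 h, 24 h or 7 d, which made 6 groups, saline and cocaine at each time. A library pooled 5 mice, and with 2 libraries per group 60 mice stood behind 12 libraries. The authors deposited 1 table per time point with 1 FPKM value (fragments per kilobase of transcript, relative to all mapped fragments) per group, pooled over its 2 libraries. A spread between libraries cannot be computed from pooled values, and the test statistics that the authors deposited beside them were not used, so that no SD and no test of a difference is given here. The depth behind each value is unknown from the tables. In bulk tissue, fewer cells of a type and less RNA per cell cannot be told apart.

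Differences are given as log2((cocaine + 0.1)/(saline + 0.1)) on FPKM, a scale that understates the differences of low genes, and a gene was counted as past the fold when this ratio was at least 0.32 above or below 0. Ratios were taken only where Cuffdiff marked the locus OK and both groups were above 0, called tested below. Of the 51 genes, 34 were tested in all 3 tables, 5 in 1 or 2 tables and 12 in none. As the only measure of how far a level moves without cocaine, the saline values of the 3 times were set beside each other, although the tables were assembled and normalized separately.

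The FPKM of these genes spanned from 0 to over 100. By the mean of the 6 groups, 4 genes stood at 10 FPKM or over, 26 between 1 and 10 and 21 under 1. Among the last, 9 were under 0.1 FPKM, and Wnt8a and Rspo4os were listed at 0 in all 6 groups. Dkk3, a secreted member of the Dickkopf family, was the most abundant, at 103 to 117 FPKM. It was followed by Dvl1, a Dishevelled adaptor, at 20.5 to 26.6 FPKM, Dkkl1, a Dickkopf-like protein known from the testis, at 17.9 to 23.2 FPKM and the ligand Wnt7b at 13.0 to 13.9 FPKM. The ranges of Dvl1 and Dkkl1 overlapped, whereas those of Dkk3 and Wnt7b did not touch a neighbour in the order. Below them Dvl3, Fzd3, Wnt9a and Wnt10a had means of 8.93, 8.62, 7.44 and 6.63 FPKM with ranges that overlapped.

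**Figure D1:**
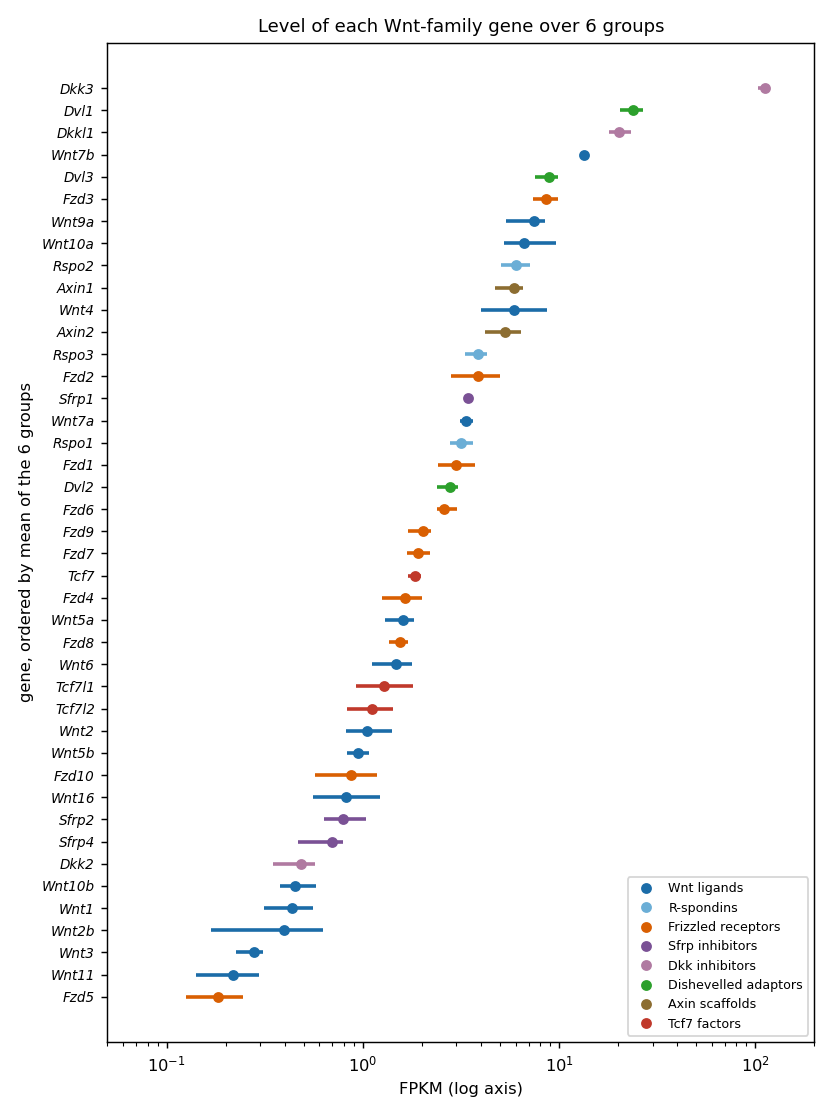
FPKM of the 42 Wnt-family genes that reached 0.1 FPKM in at least 1 group, on a log axis. Points are the mean of the 6 pooled group values, lines run from the lowest to the highest group, and colours mark the role. Dkk3 stood alone at the top at 103 to 117 FPKM.

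At 2 h after the last injection, 12 of the 35 tested genes were past the fold, which is 34.3% of them beside 14.9% of all 14658 tested genes. In cocaine 5 members were higher, where 8.06% of all genes were, and 7 lower, where 6.88% were. Ligands Wnt10a and Wnt4 and receptors Fzd1, Fzd2 and Fzd4 were higher. Lower were the ligand Wnt9a, the receptor Fzd10, the inhibitors Sfrp2 and Sfrp4, the Dickkopf-like Dkkl1, and the factors Tcf7l1 and Tcf7l2. At 24 h 8 of 39 tested genes were past the fold 20.5% beside 10.5% of all tested genes, with 3 higher (5.34% of all genes) and 5 lower (5.21%). At 7 d 9 of 36 were past it 25% beside 15.6%, with 7 higher (6.86% of all genes) and 2 lower (8.73%). The median log2 ratio of the tested members was 0.03, -0.04 and 0.05 at 2 h, 24 h and 7 d, next to 0.02, 0.01 and -0.01 over all tested genes.

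Low genes pass such a fold more easily, and the shares were therefore also read at like level. Between 1 and 10 FPKM, 8 of 25 members were past the fold at 2 h, where the share of all tested genes was 17.6%. The like counts were 3 of 25 beside 10.4% at 24 h, and 5 of 24 beside 14.9% at 7 d. Under 1 FPKM, 3 of 6, 5 of 10 and 3 of 8 members were past it, beside 43.5%, 37.3% and 39.9% of all genes, which sets these low members apart little from other low genes. At 10 FPKM and over, Dkkl1 was the only member past the fold among 4, at 2 h (4.6% of all genes) and at 7 d (8.81%), and none was at 24 h (2.92%).

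Set against the 5th to 95th percentile of all tested genes in narrow bands of level, 7 of the 35 members lay outside at 2 h: Wnt10a, Wnt4 and Fzd2 above, and Wnt9a, Fzd10, Tcf7l1 and Dkkl1 below. By its making, such a range leaves 5% of all tested genes of like level above it and 5% below it. At 24 h 5 of 39 lay outside, Wnt4 above and Wnt16, Tcf7l1, Rspo2 and Fzd6 below, which is near the share of all genes. At 7 d 0 of 36 did, although 9 were past the fold.

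**Figure D2:**
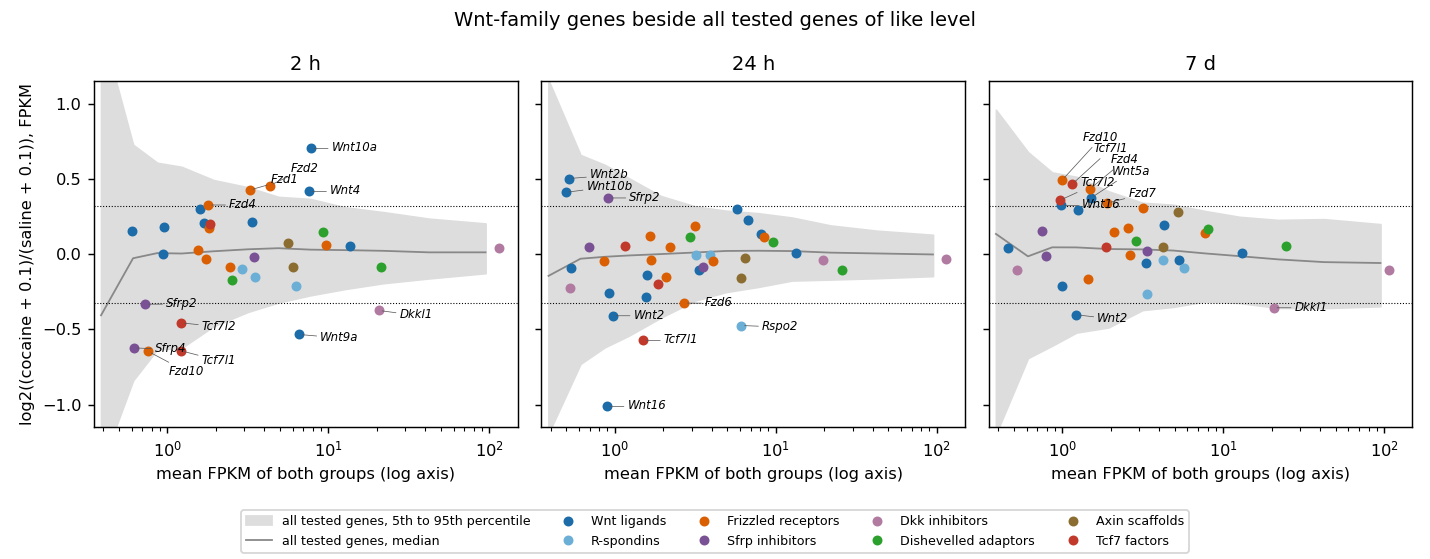
Log2 ratio of cocaine over saline against the mean FPKM of both groups (log axis) for the tested Wnt-family genes at each time, coloured by role. Grey shading runs from the 5th to the 95th percentile of all tested genes of like level, dotted lines mark a log2 ratio of 0.32 either way, and genes past it are named. At 2 h 7 of 35 members lie outside the shading, at 24 h 5 of 39 and at 7 d 0 of 36. By its making, 5% of all tested genes lie above the shading and 5% below.

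Among the ligands, Wnt10a showed the largest difference above 1 FPKM. Wnt10a, a ligand of the beta-catenin branch, was at 5.90 FPKM (saline) and 9.65 FPKM (cocaine) at 2 h, 6.23 and 7.32 FPKM at 24 h, and 5.40 and 5.25 FPKM at 7 d. The 2 h cocaine value stood above all 5 others, and the log2 ratio went from 0.70 at 2 h to 0.23 and -0.04. Its locus lies on chromosome 1 (chr1:74791516-74804179, GRCm38), and the gap to its neighbour Wnt6 is 6696 bases by the RefSeq annotation. Wnt6 had log2 ratios of 0.30, -0.29 and 0.29, none past the fold.

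Wnt4, a ligand known from kidney and reproductive tract development and from synapse formation, was higher in cocaine at all 3 times. It was at 6.49 FPKM (saline) and 8.70 FPKM (cocaine) at 2 h, 5.17 and 6.38 FPKM at 24 h, and 4.01 and 4.59 FPKM at 7 d, with log2 ratios of 0.42, 0.30 and 0.19. Only the 2 h ratio was past the fold. The saline groups themselves differed by 1.62-fold from highest to lowest, and the cocaine values at 24 h and 7 d fell inside this range, while the 2 h value lay above it. In the study's RT-PCR, Wnt4 was slightly above saline at 2 h and 24 h and below it at 7 d, none marked as significant.

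Wnt9a went the other way at 2 h, at 7.83 FPKM (saline) and 5.38 FPKM (cocaine), a log2 ratio of -0.53. At 24 h it was at 7.69 and 8.46 FPKM (0.14), and at 7 d its values of 7.29 and 7.97 FPKM carried the status FAIL, so that no ratio was taken. With the 7 d values of status FAIL included, the 3 saline groups were within 1.07-fold of each other, and the 2 h cocaine group was the lowest of the 6. Wnt7b, the most abundant ligand, known for its role in brain vessels and dendrites, had log2 ratios of 0.06, 0.01 and 0.01. The study's RT-PCR instead marked Wnt7b as significantly below saline at 2 h.

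The lower-expressed ligands past the fold were found at 24 h and 7 d. Wnt16 was at 1.22 FPKM (saline) and 0.56 FPKM (cocaine) at 24 h, a log2 ratio of -1.01. Its saline values at 2 h and 7 d were 0.57 and 0.86 FPKM, so the 24 h saline group was the high one, and the saline groups differed by 2.15-fold. The 24 h table also split Wnt16 into 2 loci, the shorter of which was at 0.84 and 0.68 FPKM (-0.26), whereas the 7 d table held 1 locus across both, at 0.86 and 1.11 FPKM (0.32).

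Wnt2, a ligand of the beta-catenin branch, had values in saline and cocaine of 0.88 and 1.01 FPKM at 2 h, 1.12 and 0.82 FPKM at 24 h, and 1.41 and 1.04 FPKM at 7 d. It was past the fold at the later times, with log2 ratios of -0.41 and -0.40, but saline itself differed by 1.59-fold between times. Wnt5a, a ligand of the branch that does not use beta-catenin, was at 1.57 and 1.82, 1.67 and 1.51, and 1.30 and 1.72 FPKM, with the 7 d ratio (0.37) past the fold. Its 7 d cocaine value was above all 3 saline values, of which the 7 d one was the lowest.

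Wnt2b and Wnt10b were tested only at 24 h, at 0.41 and 0.63 FPKM (0.50) and 0.41 and 0.58 FPKM (0.41). Wnt7a, Wnt5b, Wnt6 and Wnt1 were past the fold at no time at which they were tested, with log2 ratios from -0.29 to 0.30. In the 24 h table Wnt5b stood on 2 loci of equal length, and the second gave -0.48 in place of -0.26. Of the 19 ligands, 6 (Wnt3, Wnt3a, Wnt8a, Wnt8b, Wnt9b and Wnt11) were tested at no time, and Wnt3 at 0.23 to 0.31 FPKM was the highest of them.

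**Figure D3:**
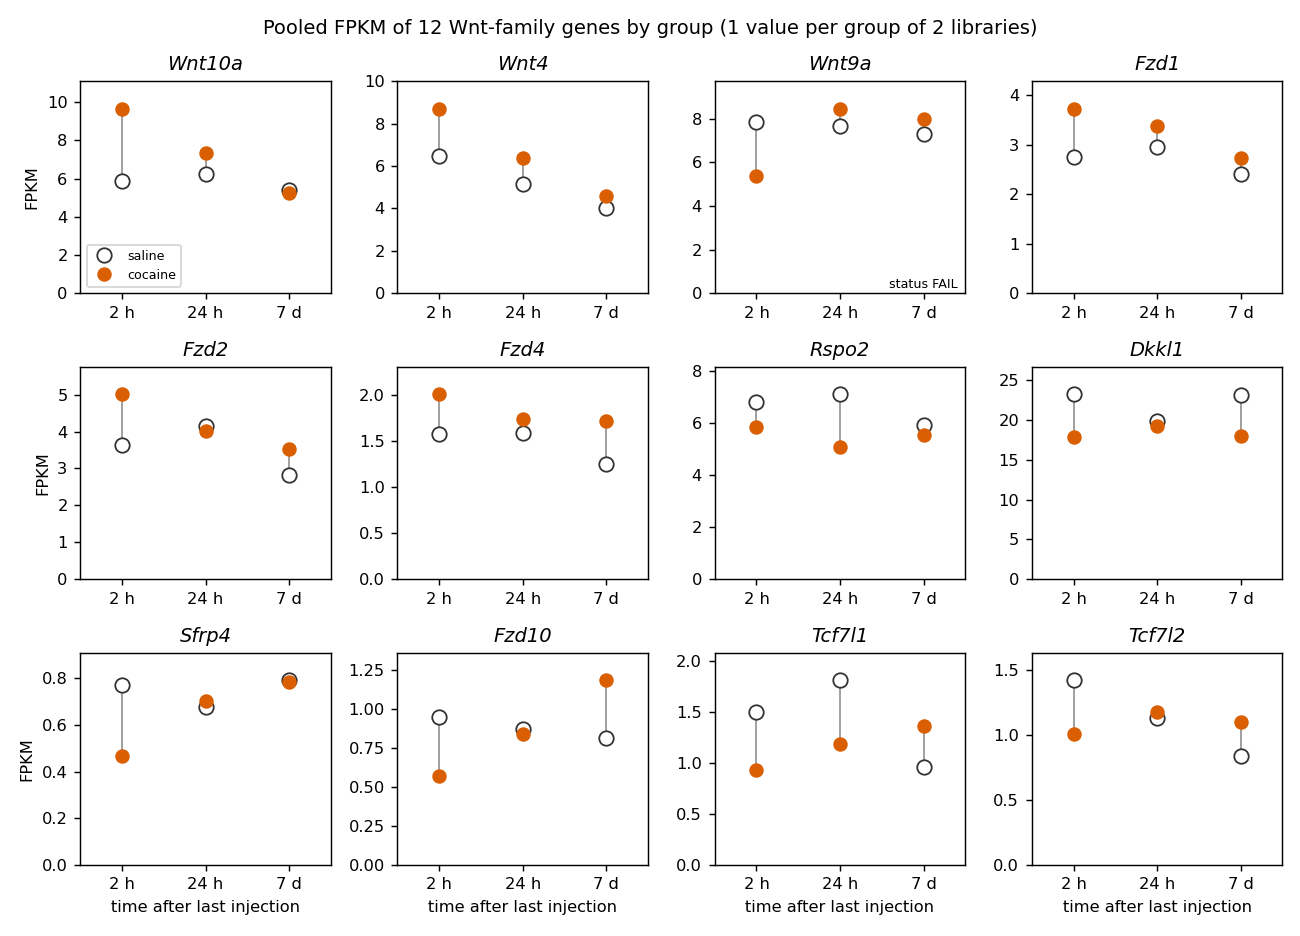
FPKM of 12 Wnt-family genes in the saline (open) and cocaine (filled) groups at 2 h, 24 h and 7 d, each point 1 value pooled over 2 libraries and each axis starting at 0. Wnt10a, Wnt4, Fzd1, Fzd2 and Fzd4 were higher in cocaine at 2 h, and Wnt9a, Sfrp4, Fzd10, Tcf7l1 and Tcf7l2 lower. The Wnt9a values at 7 d carried the status FAIL.

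The R-spondins are secreted agonists that strengthen Wnt signals by sparing Frizzled receptors from removal at the cell surface. All 3 expressed members, Rspo1, Rspo2 and Rspo3, had log2 ratios below 0 at all 3 times, from -0.47 to values that round to 0. Rspo2 was past the fold at 24 h, at 7.09 FPKM (saline) and 5.08 FPKM (cocaine) (-0.47), with 6.80 and 5.85 at 2 h (-0.21) and 5.91 and 5.54 FPKM at 7 d (-0.09). The cocaine group was the lower at each time, and the cocaine values at 2 h, 24 h and 7 d were all below the lowest saline value of 5.91 FPKM. Rspo1 and Rspo3 ranged over the 6 groups from 2.80 to 3.66 and from 3.32 to 4.27 FPKM and were past the fold at no time. Rspo4 stayed under 0.1 FPKM and was not tested.

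Of the 10 Frizzled receptors, 9 were tested at every time and Fzd5, at 0.13 to 0.25 FPKM, at none. At 2 h 3 were past the fold upward and 1 downward, at 24 h 1 downward, and at 7 d 3 upward. These were 44.4%, 11.1% and 33.3% of the 9 receptors, beside 14.9%, 10.5% and 15.6% of all tested genes. The 24 h share was thus near that of all genes. Fzd3, a receptor needed for axon guidance, was the most abundant at 7.36 to 9.90 FPKM, and its log2 ratios were 0.06, 0.11 and 0.14.

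Fzd2 was at 3.62 FPKM (saline) and 5.00 FPKM (cocaine) at 2 h, 4.14 and 4.01 FPKM at 24 h, and 2.83 and 3.52 FPKM at 7 d, with log2 ratios of 0.46, -0.05 and 0.31. Fzd1 was at 2.75 and 3.73 FPKM at 2 h, 2.95 and 3.38 FPKM at 24 h, and 2.41 and 2.72 FPKM at 7 d (0.43, 0.19 and 0.17). In both genes the 2 h cocaine group was the highest of the 6. Fzd4, the receptor through which Norrin acts on brain and retinal vessels, was at 1.58 and 2.00, 1.59 and 1.74, and 1.247 and 1.72 FPKM. Its log2 ratios of 0.33, 0.12 and 0.43 were past the fold at 2 h and 7 d, and all 3 cocaine values lay above all 3 saline values.

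Fzd10 crossed from lower to higher, at 0.95 FPKM (saline) and 0.57 FPKM (cocaine) at 2 h (-0.65), 0.87 and 0.84 FPKM at 24 h (-0.04), and 0.81 and 1.19 FPKM at 7 d (0.49). Its saline values differed by 1.17-fold, and the 2 h and 7 d cocaine values were the lowest and the highest of the 6. Fzd6, a receptor known from hair and inner ear polarity, was past the fold at 24 h, at 3.01 and 2.38 FPKM (-0.33), after 2.53 and 2.38 FPKM at 2 h and before 2.62 in both groups at 7 d. Fzd7 was past it at 7 d, at 1.67 and 2.14 FPKM (0.34), but its 24 h saline value of 2.19 FPKM was higher still. Fzd8 and Fzd9 were past the fold at no time.

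The promoters of the 2 h ligands and receptors with a mean of at least 1 FPKM in that table are shown because these genes stood past the fold together, some upward and some downward. RefSeq promoter windows on GRCm38.p6 were at hand for 35 of the 51 genes, in 40 windows. They were found for Wnt4 (chr4:137277385-137277634, plus strand), Fzd1 (chr5:4758217-4758466, minus strand), Fzd4 (chr7:89404116-89404365, plus strand) and Wnt9a (chr11:59306680-59306929, plus strand), while Wnt10a and Fzd2 are named only. Each line gives the 250 bases before the transcription start, 5′ to 3′ on the gene's strand. Capitals mark matches on either strand to TGACG (core of the cAMP response element), TGANTCA (AP-1), GCGNGGGCG (EGR), CTTTGA (TCF/LEF) or CACGTG (E-box).
Wnt4: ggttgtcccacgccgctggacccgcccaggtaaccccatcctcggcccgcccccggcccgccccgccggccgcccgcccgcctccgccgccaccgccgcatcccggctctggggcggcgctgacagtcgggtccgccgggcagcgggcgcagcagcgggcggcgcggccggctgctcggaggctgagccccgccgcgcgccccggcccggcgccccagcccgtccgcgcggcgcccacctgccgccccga
Fzd1: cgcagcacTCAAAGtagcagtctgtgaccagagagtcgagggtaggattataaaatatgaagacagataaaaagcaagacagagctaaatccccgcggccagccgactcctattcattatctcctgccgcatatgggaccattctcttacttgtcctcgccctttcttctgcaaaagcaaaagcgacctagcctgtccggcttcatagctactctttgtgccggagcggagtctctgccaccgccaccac
Fzd4: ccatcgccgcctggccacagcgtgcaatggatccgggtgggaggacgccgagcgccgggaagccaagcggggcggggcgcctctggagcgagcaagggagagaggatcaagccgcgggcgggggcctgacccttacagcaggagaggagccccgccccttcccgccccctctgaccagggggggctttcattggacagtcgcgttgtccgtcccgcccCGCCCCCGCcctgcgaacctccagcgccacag
Wnt9a: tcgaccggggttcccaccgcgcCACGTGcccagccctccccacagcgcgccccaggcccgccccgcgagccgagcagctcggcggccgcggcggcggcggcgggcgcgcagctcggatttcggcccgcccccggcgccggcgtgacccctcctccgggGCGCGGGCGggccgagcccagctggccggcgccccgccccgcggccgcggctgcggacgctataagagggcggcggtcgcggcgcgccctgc

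The Wnt4 window held none of these letters. The Fzd1 window held CTTTGA on the reverse strand at -242 to -237 from the start, and the Fzd4 window GCGNGGGCG on the reverse strand at -32 to -24. In the Wnt9a window CACGTG stood at -228 to -223 and GCGNGGGCG at -92 to -84. The 3 windows of Wnt4, Wnt9a and Fzd4 were 85.2%, 84.4% and 72.8% G and C and that of Fzd1 51.2%. Over all members' windows the median was 69.4%, against 52.4% over the 32851 windows of all genes. GCGNGGGCG occurred in 11 of the 40 members' windows (27.5%) and in 4.7% of all windows, and its letters are nearly all G and C. The shares for the other motifs were 15% of members' windows and 17.8% of all for TGACG, 5% and 6.75% for TGANTCA, 10% and 13.8% for CTTTGA, and 10% and 6.02% for CACGTG. These matches are letters in a window and were not read as binding.

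The secreted Frizzled-related proteins bind Wnts outside the cell and so compete with the receptors. Sfrp1, the most abundant at 3.33 to 3.66 FPKM, had log2 ratios between -0.08 and 0.02. Sfrp2 was at 0.82 FPKM (saline) and 0.63 FPKM (cocaine) at 2 h (-0.33), 0.78 and 1.04 FPKM at 24 h (0.37), and 0.70 and 0.79 FPKM at 7 d (0.15). Sfrp4 was at 0.77 and 0.47 FPKM at 2 h (-0.62), 0.68 and 0.70 FPKM at 24 h, and 0.79 and 0.78 FPKM at 7 d. In both, the 2 h cocaine group was the lowest of the 6, but at under 1 FPKM. Sfrp5 was under 0.1 FPKM throughout.

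Of the Dickkopf-type proteins, of which Dkk1, Dkk2 and Dkk4 block the Lrp co-receptors, Dkk1 and Dkk4 were under 0.1 FPKM. Dkk3 had log2 ratios of 0.04, -0.03 and -0.10, and Dkk2, at 0.35 to 0.57 FPKM, was past the fold at no time at which it was tested. Dkkl1 was at 23.2 FPKM (saline) and 17.9 FPKM (cocaine) at 2 h, 19.8 and 19.3 FPKM at 24 h, and 23.1 and 18.0 FPKM at 7 d. Its log2 ratios were -0.37, -0.04 and -0.36, and the cocaine groups were each below the lowest saline group of 19.8 FPKM. Taking out the trend with transcript length described below brought its 7 d ratio to -0.18 and left the 2 h ratio at -0.37.

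Inside the cell, the Dishevelled adaptors and Axin scaffolds differed little. None of Dvl1, Dvl2, Dvl3, Axin1 or Axin2 was past the fold at any time, and their log2 ratios ran from -0.17 (Dvl2 at 2 h) to 0.28 (Axin1 at 7 d). Axin2, itself a well-known target of beta-catenin, was at 5.44 FPKM (saline) and 5.73 FPKM (cocaine) at 2 h, 6.42 and 5.75 FPKM at 24 h, and 4.18 and 4.32 FPKM at 7 d. Its row was shared with its neighbour Cep112 at 2 h and 24 h, so those values are not of Axin2 alone.

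The Tcf7-type factors bind beta-catenin on DNA, and Tcf7l1 is known mainly as a repressor. Tcf7l1 was past the fold at all 3 times, the only member to be so, at 1.5 FPKM (saline) and 0.92 FPKM (cocaine) at 2 h, 1.81 and 1.18 FPKM at 24 h, and 0.96 and 1.36 FPKM at 7 d. The log2 ratios were -0.64, -0.57 and 0.47, lower at the early times and higher at 7 d. Saline differed by 1.89-fold between times, and only the 2 h cocaine value lay outside the 3 saline values, just under the 7 d one. Tcf7l2 was at 1.42 and 1.01 FPKM at 2 h (-0.46), 1.13 and 1.18 FPKM at 24 h (0.05), and 0.83 and 1.10 FPKM at 7 d (0.36), within its saline range at each time. Tcf7 had ratios of 0.20, -0.20 and 0.05 on a row whose span on chromosome 11 covers several neighbouring genes.

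**Figure D4:**
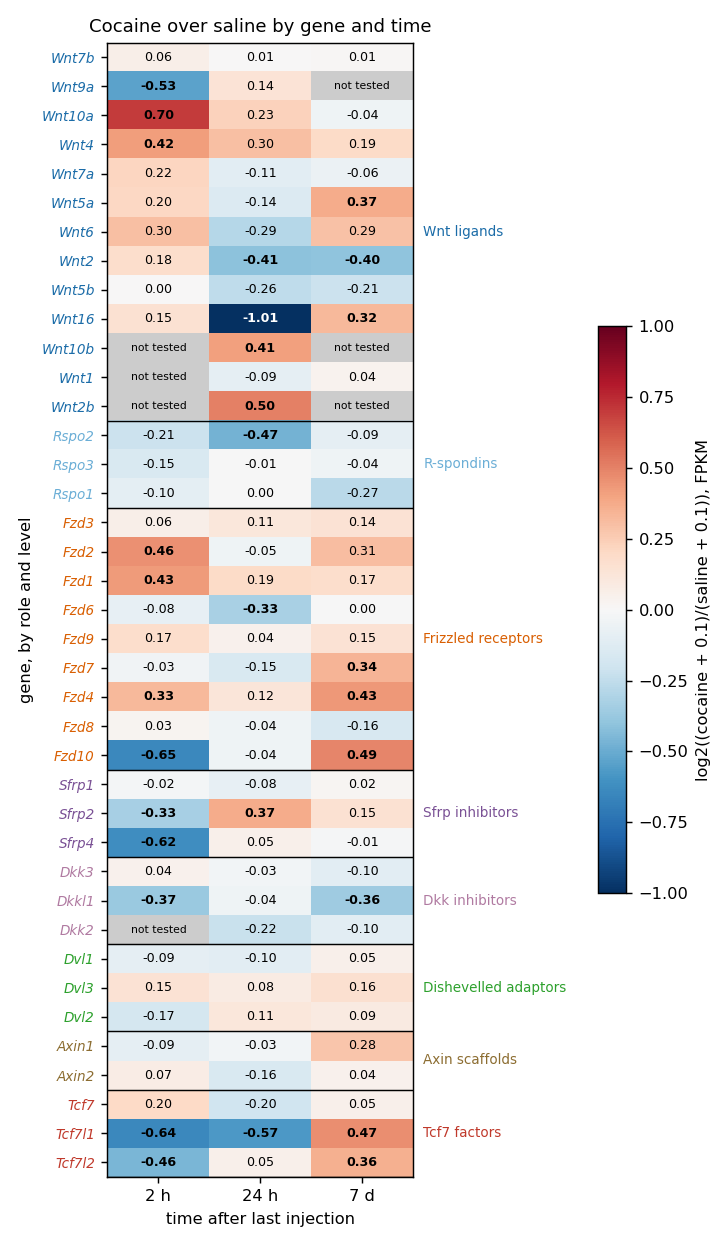
Log2((cocaine + 0.1)/(saline + 0.1)) of the 39 Wnt-family genes tested at 1 time or more, in columns for 2 h, 24 h and 7 d and rows ordered by role and level. Red is higher and blue lower in cocaine, bold values are past 0.32 either way, and grey cells were not tested. The 3 R-spondins are at or below 0 in every column, and Tcf7l1, Tcf7l2 and Fzd10 turn from blue at 2 h to red at 7 d.

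Across times, 17 of the 34 genes tested in all tables were past the fold at no time, 9 at 1 time, 7 at 2 times and 1 at 3 times. Log2 ratios were above 0 at every time for 7 genes, namely Wnt4, Wnt7b, Fzd1, Fzd3, Fzd4, Fzd9 and Dvl3. They were below 0 at every time for 5, Dkkl1, Fzd6, Rspo1, Rspo2 and Rspo3. Fzd10, Sfrp2, Tcf7l1, Tcf7l2 and Wnt16 were past the fold in opposite directions at different times. 6 genes, 1 of them Wnt16 again, were above 0 at 2 h and 7 d and below 0 at 24 h, namely Wnt5a, Wnt6, Wnt16, Fzd2, Axin2 and Tcf7. The like counts over all tested genes were not made, so these patterns across times cannot be read as a trait of the family.

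The saline groups gave the scale for these differences. Between saline at 7 d and at 24 h, 11 of the 34 genes were past the fold, all lower at 7 d, beside 19% of all genes. Between saline at 2 h and 7 d there were 10 (17.3%), and between 2 h and 24 h 3 (12.3%). Axin2 and Wnt16 are counted in both comparisons with 7 d, but on unlike loci. The Axin2 row was shared with Cep112 only at 2 h and 24 h, and the Wnt16 locus was longer at 7 d. On the same 34 genes, cocaine against saline put 11, 6 and 9 past the fold at 2 h, 24 h and 7 d. The 11 at 2 h with cocaine thus equalled the 11 between saline at 7 d and 24 h. Counting only genes past the fold whose cocaine value also lay outside the 3 saline values left 10 of 34 at 2 h, 5 at 24 h and 4 at 7 d, where the shares of all genes were 10.8%, 5.51% and 7.28%. At 2 h these were Wnt10a, Wnt4, Fzd1, Fzd2 and Fzd4 above the saline values and Dkkl1, Fzd10, Sfrp2, Sfrp4 and Tcf7l1 below them. At 24 h they were Sfrp2 above and Fzd6, Rspo2, Wnt16 and Wnt2 below, and at 7 d Fzd4, Fzd10 and Wnt5a above and Dkkl1 below. Thus Tcf7l1, Tcf7l2, Fzd7, Wnt16 and Wnt2 at 7 d did not leave the range that saline alone spanned. Wnt9a was not among the 34 genes, because it was not tested at 7 d.

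Other genes of the pathway were read as 7 lists of 78 symbols, 76 of them in the tables. At 2 h 9 of 63 tested genes were past the fold upward and 2 downward (17.5%), at 24 h 3 and 3 of 63 (9.52%), and at 7 d 6 and 1 of 64 (10.9%), shares close to those of all tested genes at 2 h and 24 h and below them at 7 d. The median log2 ratio was 0.12, -0.01 and 0.08. Beta-catenin itself (Ctnnb1) was at 129 to 135 FPKM with ratios of 0.03 and -0.07 at 2 h and 24 h, and the same level in both groups to 3 digits at 7 d, 133 FPKM.

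By list, the beta-catenin targets held 4 of 17 genes past the fold upward and 1 downward at 2 h, 1 and 2 of 17 at 24 h, and 1 and 1 of 16 at 7 d. These were 29.4%, 17.6% and 12.5% of the tested targets, beside 14.9%, 10.5% and 15.6% of all tested genes. Of the 5 at 2 h, only Ccnd2 and Myc, described next, had a mean of at least 1 FPKM. Under 1 FPKM, 43.5% of all tested genes were past the fold at 2 h. Ccnd2, the cell cycle regulator cyclin D2, was at 9.25 FPKM (saline) and 16.7 FPKM (cocaine) at 2 h (0.85), 8.50 and 10.5 FPKM at 24 h (0.30), and 13.1 and 13.2 FPKM at 7 d (0.01). Myc, a transcription factor of growth, was at 1.12 and 1.87 FPKM at 2 h (0.69), 2.12 and 1.56 FPKM at 24 h (-0.42), and 1.40 and 1.39 FPKM at 7 d. Both are also known to respond to many other signals. Their saline levels moved between times too, and the 2 h cocaine value of Myc was under the 24 h saline value.

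Among the nuclear partners, 2 of 12 were past the fold upward and 1 downward at 2 h (25% in all), and 1 upward at each later time (8.33%). Tle3, a co-repressor that binds Tcf factors, was higher at every time, at 8.83 FPKM (saline) and 12.6 FPKM (cocaine) at 2 h, 8.05 and 10.2 FPKM at 24 h, and 6.67 and 8.59 FPKM at 7 d (0.51, 0.33 and 0.36). The destruction complex list held 2 of 17 genes past the fold at 2 h, 1 of 17 at 24 h and 1 of 19 at 7 d, all upward. The list of polarity proteins and tyrosine kinase-like receptors held 0 of 10, then 1 of 11 downward and 2 of 11 upward. Co-receptors and receptor turnover held 0 of 6, then 1 of 6 downward and 1 of 6 upward, the last being the co-receptor Lrp5 at 1.88 and 2.5 FPKM (0.39). The other inhibitors held 1 of 4 upward at 2 h and 0 of 3 later, and the Wnt secretion genes, among them Porcn and Wls, 0 of 3 at each time.

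Markers of the cells that the dissected tissue could hold moved with some of these results. The summed FPKM of 10 meningeal fibroblast markers was 83.8 in saline and 96.0 in cocaine at 2 h, 103 and 88.6 FPKM at 24 h, and 85.1 and 102 FPKM at 7 d, and that of 6 astrocyte markers 554 and 623, 643 and 577, and 532 and 637. Both sums were thus higher, lower and higher in cocaine. The endothelial sum and the pericyte and smooth muscle sum, given below, had this order too, though with log2 values of only -0.01 and -0.02 at 24 h. Wnt5a, Wnt6, Wnt16, Fzd2, Axin2 and Tcf7 were the members with this order. Of the meningeal list, 1 gene was past the fold upward and 1 downward at 2 h, 2 of 10 downward at 24 h and 5 of 10 upward at 7 d. Of the 6 astrocyte markers 0 were past it at 2 h, 1 downward at 24 h and 1 upward at 7 d. Over all tested genes the shares past the fold were 14.9%, 10.5% and 15.6%. The sum of 8 endothelial markers was 138 and 157 FPKM at 2 h, 157 and 155 FPKM at 24 h, and 142 and 151 FPKM at 7 d, beside which Fzd4 was higher at 2 h and 7 d. Their part in the results was not tested.

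The pericyte and smooth muscle sum was 61.0 and 62.9, 57.5 and 56.7, and 47.4 and 55.3 FPKM. For choroid plexus, 4 of 8 markers were under 0.1 FPKM in every group, and the sum followed Ttr, at 1.90 and 0.46 FPKM at 2 h, 1.80 and 1.10 FPKM at 24 h, and 0.28 and 6.54 FPKM at 7 d. This is the order of Tcf7l1, lower, lower and higher, and the part of such cells in it was not tested. Ttr stood alone in it. At 2 h it was the only marker of the list that was tested, and Folr1, Kl and Aqp1 were listed slightly higher in cocaine, at 0.33 and 0.34, 0.41 and 0.51, and 0.17 and 0.22 FPKM. At 7 d 2 of the 3 tested markers were past the fold upward and 1, Folr1, downward at 0.67 and 0.29 FPKM. Blood genes were higher in cocaine at 2 h for 5 of 5, with sums of 323 and 504 FPKM, then 458 and 504, and 452 and 529. The sums of neuronal, striatal and olfactory bulb markers differed by log2 values between -0.20 and 0.13, and those of oligodendrocyte markers by -0.09, -0.27 and -0.02. Within the striatal list 1 of 6 tested markers was past the fold upward and 2 downward at 2 h, 0 of 6 at 24 h, and again 1 upward and 2 downward at 7 d. Of the neuronal list 1 of 7 was past it, downward, at 7 d, and of the olfactory bulb and oligodendrocyte lists 0 at each time. Beside these marker counts, the shares of all tested genes were again 14.9%, 10.5% and 15.6% at 2 h, 24 h and 7 d. The neuronal markers, at sums of 2464 to 2587 FPKM, were present in every group.

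Log2 ratios also varied with transcript length. Across genes, which are not independent replicates, Spearman's rho between the ratio and the length of the longest protein-coding transcript was 0.45 at 7 d, higher than at 2 h (0.15) and 24 h (0.08), and lengths were found for 81.7%, 80.6% and 80.5% of tested genes. With the median of genes of like length taken out, 11, 8 and 5 members were past the fold at 2 h, 24 h and 7 d. These were 31.4%, 20.5% and 13.9% of the members, beside 11.6%, 7.42% and 8.87% of all genes treated alike. The 5 at 7 d were Fzd10, Fzd4, Tcf7l1 and Wnt6 upward and Wnt2 downward, while Wnt5a (0.24), Fzd7 (0.27), Tcf7l2 (0.31), Wnt16 (0.29) and Dkkl1 (-0.18) no longer passed it. At 2 h Fzd4, at 0.29, was the gene that no longer passed.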

How the data were processed

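Poly(A) RNA from PFC was sequenced as paired ends on 12 libraries in 6 groups. The authors trimmed, aligned uniquely mapped reads and deposited 1 Cuffdiff table per time point with a pooled FPKM per group. The methods name cutadapt and mm9, whereas the submitters' processing notes name Trimmomatic 0.32, TopHat2 2.0.12, Cufflinks 2.2.1 and GRCm38. The loci matched GRCm38 (99.9%, 99.7% and 99.9% of named tested loci overlapped their RefSeq gene). The deposited fold changes, test statistics, p-values and q-values of the authors were not used; the status column served as a filter. Because the header prefix for saline and cocaine is ambiguous, the columns were assigned by the saline and cocaine headings of the study's supplementary tables. The read length is 75 nt per the labels, and differs in the methods.

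A pseudocount of 0.1 FPKM was added. A gene on several loci took the longest, and on a tie the one with the higher mean FPKM. Genes were named by role when past a log2 ratio of 0.32 either way at a mean of at least 0.5 FPKM, or among the 3 most abundant of their role; of the pathway lists, those past 1.5-fold at a mean of at least 1 FPKM. Wnt1, Wnt5b, Wnt6, Wnt7a, Wnt10b, Fzd8, Fzd9, the genes tested at no time and the list genes Ctnnb1, Tle3, Lrp5, Porcn and Wls and the markers Ttr, Folr1, Kl and Aqp1 were named after their values were seen. The lists were 7 for the pathway and 11 of cell markers, of which 10 are given (choroid plexus, meningeal fibroblast, endothelial, pericyte and smooth muscle, astrocyte, oligodendrocyte, neuron, striatal neuron, olfactory bulb and blood); 1 marker list is not reported here. Members and lists were chosen with earlier results of these data known. Transcript lengths came from GENCODE by symbol, in 20 groups of like length; promoter windows came from RefSeq. Only the ratio and the count past the fold were tested on simulated data, with differences planted in genes of at least 1 FPKM. All steps were run with pandas 2.3.3, matplotlib 3.10.9 and numpy 2.4.6 under Python 3.11.15.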

Additional observations from a re-analysis of the deposited data

How the results depend on the processing

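No paired analysis was possible because each group is 1 pooled value, and for the same reason no library could be left out in turn. No log2 ratio of a named gene changed sign past the fold under the alternatives, but most of them could not change a sign. Another pseudocount, another fold or a filter on level or status leaves the order of the 2 values as it is. Only centring, the choice of locus and taking out the length trend could change it. Adding 1 FPKM in place of 0.1 left 7, 3 and 1 members past the fold at 2 h, 24 h and 7 d (12, 8 and 9 as reported), or 20%, 7.69% and 2.78% of members beside 7.73%, 4.95% and 7.98% of all genes, so that at 7 d the members' share was below that of all genes. Asking for 1.5-fold left 4, 1 and 0 (4.91%, 3.86% and 4.3% of all genes), and for 2-fold 0, 1 and 0 (1.53%, 1.57% and 1.75%), the last 1 being Wnt16 at 24 h. A mean of at least 1 FPKM left 3 at 24 h (10.3% of members, 7.01% of all genes), and taking out the length trend 5 at 7 d. Members past the fold and outside the saline values numbered 19 over the 3 times, and 9 with 1 FPKM added, 5 at 1.5-fold, 1 at 2-fold and 12 at a mean of at least 1 FPKM.

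Of the pathway lists, 11, 6 and 7 genes were past the fold at 2 h, 24 h and 7 d. With 1 FPKM added there were 6, 0 and 1, at 1.5-fold 5, 0 and 1, at 2-fold 1, 0 and 0, and at a mean of at least 1 FPKM 6, 2 and 2. At 7 d they were 11 without the status filter, 11 after centring on the median of all genes and 2 without the length trend. Pseudocount 0 and the choice of locus kept each of these counts within 1.5 times, and the level bands and the second Wnt5b locus were added after seeing the data. FPKM without depth gives no counting error, and for members under 1 FPKM neither sampling nor a difference between the 2 pooled libraries can be separated from the values given.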
